A study of Homo sapiens with 2 samples.

Results

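The Notch genes followed here are 10 genes of 1 signalling pathway: the receptors NOTCH1, NOTCH2 and NOTCH3, the ligands JAG1, JAG2 and DLL1, the target genes HES1, HEY1 and HEY2, and NUMB, an inhibitor of the receptors. They were chosen by name, as the features of the array annotated to these symbols. A named feature was found for 9 of the 10, among 14812 genes with one in all, and each of the 9 rested on 1 feature. HES1 had no named feature in the annotation used here and has no value. RNA was measured in MCF-10A, an established, non-tumorigenic line of human mammary epithelial cells, on Affymetrix whole-transcript arrays. There were 2 groups with 1 array each: cells stably expressing EGFP-ARHGAP4, in which the RhoGAP protein ARHGAP4 is fused to the green fluorescent protein EGFP, and cells stably expressing the EGFP vector. Both groups therefore carried EGFP, and the labels do not say whether either line was a clone or a pool. With 1 array per group, no difference below has a replicate check, an error between cultures or a p-value.

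Notch receptors are single-pass membrane proteins that bind Jagged or Delta-like ligands on the surface of a neighbouring cell. Binding leads to cleavage by an ADAM protease and then by gamma-secretase, and the freed intracellular part of the receptor joins the DNA-binding protein RBPJ and a Mastermind coactivator to switch on HES and HEY genes, which code for transcriptional repressors. In the mammary gland the pathway is known for its part in luminal cell fate, and in the epidermis for its part in differentiation.

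The DNA that RBPJ recognises lies close to the start of several of its targets, and the promoters of HEY2 and HES1 are shown for that reason. The RBPJ core TGGGAA and the longer form CGTGGGAA, which contains it, were searched on both strands in windows of 300 bases, from 250 before to 50 after the annotated start (RefSeq, GRCh38.p14). Windows were used for 8 of the 10 genes. The sequences run 5′ to 3′ along the gene, and the capitals mark the RBPJ core with the bases that extend it. HEY2 lies at chr6:125749382-125749681 on the + strand and HES1 at chr3:194135898-194136197 on the + strand.
HEY2: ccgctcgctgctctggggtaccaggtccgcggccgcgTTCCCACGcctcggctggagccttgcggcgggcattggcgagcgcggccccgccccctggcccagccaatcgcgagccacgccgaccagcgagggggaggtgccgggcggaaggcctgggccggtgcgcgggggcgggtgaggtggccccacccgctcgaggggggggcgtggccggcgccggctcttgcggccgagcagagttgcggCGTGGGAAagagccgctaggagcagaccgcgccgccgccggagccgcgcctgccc
HES1: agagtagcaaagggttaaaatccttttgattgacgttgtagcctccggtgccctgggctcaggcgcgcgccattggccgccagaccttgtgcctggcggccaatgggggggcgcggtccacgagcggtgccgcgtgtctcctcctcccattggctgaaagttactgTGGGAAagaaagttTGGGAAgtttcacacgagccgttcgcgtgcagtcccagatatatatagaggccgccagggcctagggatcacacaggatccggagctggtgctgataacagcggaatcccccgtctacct

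The HEY2 window held CGTGGGAA 2 times, once on the opposite strand 213 bases before the start and once beginning 5 bases before the start. Of all 35116 promoter windows in the table, 0.826% held this motif at least once, and 4 windows held it at least 2 times: those of HEY2, of its antisense neighbour HEY2-AS1, of DIPK2A and of IDUA. DIPK2A, named here after its value was seen, had log2 values of 4.72 in the EGFP-ARHGAP4 array and 4.91 in the EGFP vector array, a difference of -0.18. The HES1 window held the shorter core 2 times on the same strand, beginning 84 and 70 bases before the start. The shorter core was found at least once in 24.0% of all windows and at least 2 times in 3.80%. These letters were not in the windows of the other 6 Notch genes used. A match describes the sequence and is not a measured site.

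The promoters of NOTCH1 and JAG1 are shown because these are the receptor and the ligand with the highest differences between the arrays. Here the capitals mark 2 other motifs, searched on both strands: GGGCGG, the GC box bound by SP and KLF factors, and CACGNG, a form of the site bound by HES and HEY repressors. They do not overlap each other in these windows. NOTCH1 lies at chr9:136545999-136546298 on the - strand and JAG1 at chr20:10673950-10674249 on the - strand.
NOTCH1: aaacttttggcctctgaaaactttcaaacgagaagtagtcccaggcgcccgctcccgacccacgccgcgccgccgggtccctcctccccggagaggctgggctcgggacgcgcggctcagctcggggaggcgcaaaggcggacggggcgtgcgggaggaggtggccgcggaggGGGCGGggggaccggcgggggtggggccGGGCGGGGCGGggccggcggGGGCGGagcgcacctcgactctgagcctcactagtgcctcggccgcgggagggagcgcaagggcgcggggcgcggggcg
JAG1: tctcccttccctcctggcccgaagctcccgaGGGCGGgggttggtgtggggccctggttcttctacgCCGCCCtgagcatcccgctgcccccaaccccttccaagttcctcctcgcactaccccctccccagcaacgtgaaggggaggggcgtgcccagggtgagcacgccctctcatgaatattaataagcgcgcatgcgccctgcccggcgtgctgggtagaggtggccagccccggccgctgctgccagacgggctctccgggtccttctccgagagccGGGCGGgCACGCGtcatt

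The NOTCH1 window was 77.0% G and C, against a median of 58.7% over all windows, and held 4 GC boxes between 77 and 29 bases before the start, of which a pair shares 1 base. It held no CACGNG. The JAG1 window held 3 GC boxes and 1 CACGNG, which began 40 bases into the transcript. The GC box was present at least once in 45.0% of all windows and at least 2 times in 26.7%, and CACGNG at least once in 30.5%. Such windows were not particular to genes with a high difference. JAG2, NOTCH3, NOTCH2 and NUMB were 79.7%, 78.3%, 70.3% and 57.3% G and C, with 2, 5, 2 and 4 GC boxes. CACGNG was found 2 times in the JAG2 window, 1 time each in those of NOTCH3 and NOTCH2, and not in that of NUMB. The HEY2 window was 79.0% G and C, with 3 GC boxes and no CACGNG. The window of HES1, which has no expression value, was 59.0% G and C, with no GC box and 4 CACGNG.

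Before the Notch genes, the labels were checked against the gene that was introduced. The log2 value of ARHGAP4 was 6.68 in the EGFP-ARHGAP4 array and 4.49 in the EGFP vector array, a 4.56-fold difference in the direction of the labels. A level filter kept 7685 genes, those with at least 1 array at 4.02 or more, which is the middle log2 value over genes and arrays. The median difference of these genes, always EGFP-ARHGAP4 minus EGFP vector, was -0.10, with an SD across genes of 0.37, and 85.0% of them differed by less than 0.5. Quantile normalization, centring or removal of the level trend by loess brings this median to between -0.02 and 0.00. Centring raises every difference by 0.10. The other 2 scalings depend on the level and raise NOTCH1, at 1.12 as deposited, to 1.22 (quantile normalization) and 1.25 (loess). Genes of low level move little under them: HEY1, at 0.15 as deposited, was at 0.15 after quantile normalization and 0.13 after loess. As a yardstick, differences of several features for the same gene had a pooled SD of 0.21 over 336 genes past the filter. It describes these 2 arrays and not the spread between cultures, and it does not cover genes below the filter. Of 12 listed keratin and epithelial markers of the labelled cells, 7 were measured, and 6 of these were at or above the filter in both arrays. The filter is a middle value and not a detection call. KRT14, a basal keratin, differed by -2.25 and EPCAM, an epithelial adhesion gene, by 1.20, while KRT5, the basal partner keratin of KRT14, differed by 0.02.

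Of the 9 measured Notch genes, NOTCH1 and HEY2 were higher in the EGFP-ARHGAP4 array by at least 0.5 on the log2 scale, and 1 of them (NOTCH1) by at least 1. No measured Notch gene was lower by 0.5 or more. After quantile normalization, centring or loess JAG1 was past 0.5 as well, which made 3. Over all 14812 genes, 4.25% were higher and 6.47% lower by at least 0.5, and 0.581% were higher and 0.486% lower by at least 1. Among the genes past the level filter, which 7 of the 9 passed, the shares were 5.15% higher and 9.81% lower by 0.5, and 1% higher and 0.794% lower by 1. The median difference of the 9 was 0.04, against -0.03 for all genes. The set thus held a few genes that were higher, NOTCH2 and NOTCH3 near the lower quartile of genes past the filter, and the rest between these.

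**Figure D1:**
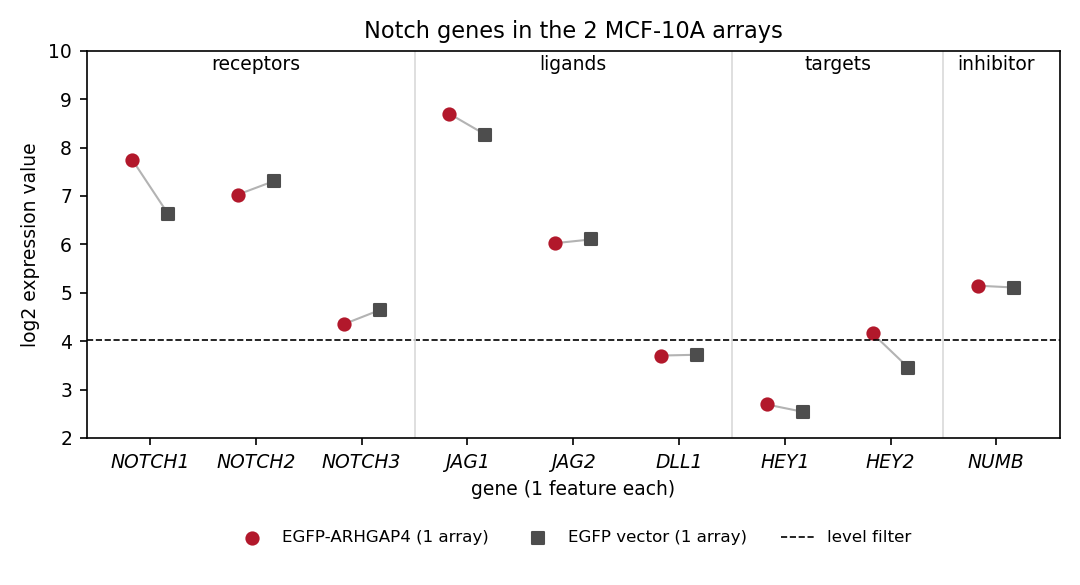
Log2 expression values (y axis) of the 9 measured Notch genes (x axis, grouped by role) in the EGFP-ARHGAP4 array (circles, left of each pair) and the EGFP vector array (squares, right), with 1 array per group and no error bars. The dashed line is the level filter at 4.02; NOTCH1 at 7.75 against 6.63 shows the widest gap, and heights of different genes are not comparable because each has its own probes.

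Among the receptors, NOTCH1 alone differed by 0.5 or more. NOTCH1 had log2 values of 7.75 in the EGFP-ARHGAP4 array and 6.63 in the EGFP vector array. The difference of 1.12, or 2.18-fold, was equalled or exceeded upwards by 64 of the 7685 genes past the filter, NOTCH1 included (0.833%). NOTCH1 is the receptor best known in keratinocytes, where it promotes the switch from proliferation to differentiation.

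NOTCH2 had 7.03 in the EGFP-ARHGAP4 array and 7.31 in the EGFP vector array, 1.21-fold lower. Human NOTCH2 has partial copies, the NOTCH2NL genes, so its feature may take up their RNA, which was not tested. The feature named for the copy NOTCH2NLA stood at 7.41 in the EGFP-ARHGAP4 array and 7.77 in the EGFP vector array. This copy, with a difference of -0.36, is given after its value was seen. NOTCH3, a receptor known from luminal progenitors and from vascular smooth muscle, had 4.35 in the EGFP-ARHGAP4 array and 4.64 in the EGFP vector array. The differences of NOTCH2 and NOTCH3, -0.28 and -0.29, lay near the lower quartile of all genes past the filter, which was -0.29. They were -0.16 and -0.24 after quantile normalization, -0.18 and -0.19 after centring, and -0.15 and -0.25 after loess. The fourth receptor, NOTCH4, best known from endothelial cells and given after its value was seen, held the same value of 3.72 to the last digit in both arrays and lay below the filter. Such identical pairs were found for 6.96% of all features. Their origin was not tested and the processing of the values is not given, so they are not read as a measured equality. In the medians of gene lists below they count as differences of 0.00.

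Among the ligands, JAG1 had the highest difference, and none reached 0.5 in either direction as deposited. JAG1, the Jagged ligand known from epithelial stem cell compartments, had log2 values of 8.70 in the EGFP-ARHGAP4 array and 8.27 in the EGFP vector array, 1.35-fold higher. As deposited its difference was 0.43, which 6.97% of genes past the filter reached or passed. It was 0.53 after quantile normalization or centring and 0.56 after loess. JAG2, the other Jagged ligand, had 6.02 in the EGFP-ARHGAP4 array and 6.10 in the EGFP vector array. DLL1, a Delta-like ligand, had 3.70 in the EGFP-ARHGAP4 array and 3.72 in the EGFP vector array, both below the filter. The difference of JAG2, -0.08, changes sign under each of these 3 scalings and that of DLL1, -0.02, after centring. The remaining Delta-like ligands, DLL3 and DLL4, given after their values were seen, also lay below the filter in both arrays, at differences of 0.09 and 0.19.

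The targets were measured in part. HEY2, a repressor of the HEY family known from heart and vessel development, had log2 values of 4.16 in the EGFP-ARHGAP4 array and 3.45 in the EGFP vector array. The difference of 0.71, or 1.64-fold, was equalled or exceeded upwards by 191 genes past the filter (2.49%). The EGFP vector value lies below the filter, where values narrow towards background, and HEY2 passed through the EGFP-ARHGAP4 array alone, so the fold is approximate. HEY1, a close relative, was low in both arrays, at 2.69 in the EGFP-ARHGAP4 array and 2.54 in the EGFP vector array. Its difference of 0.15 is smaller than the SD between features of the same gene, but that SD was taken over genes past the filter, and HEY1 lies below it.

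NUMB, an endocytic adaptor that lowers Notch receptor activity and is inherited unequally in some dividing cells, had 5.15 in the EGFP-ARHGAP4 array and 5.11 in the EGFP vector array. The difference of 0.04 placed it at the 67.1 percentile of the genes past the filter. Its relative NUMBL, given after its value was seen, had 5.76 in the EGFP-ARHGAP4 array and 5.86 in the EGFP vector array, a difference of -0.10.

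**Figure D2:**
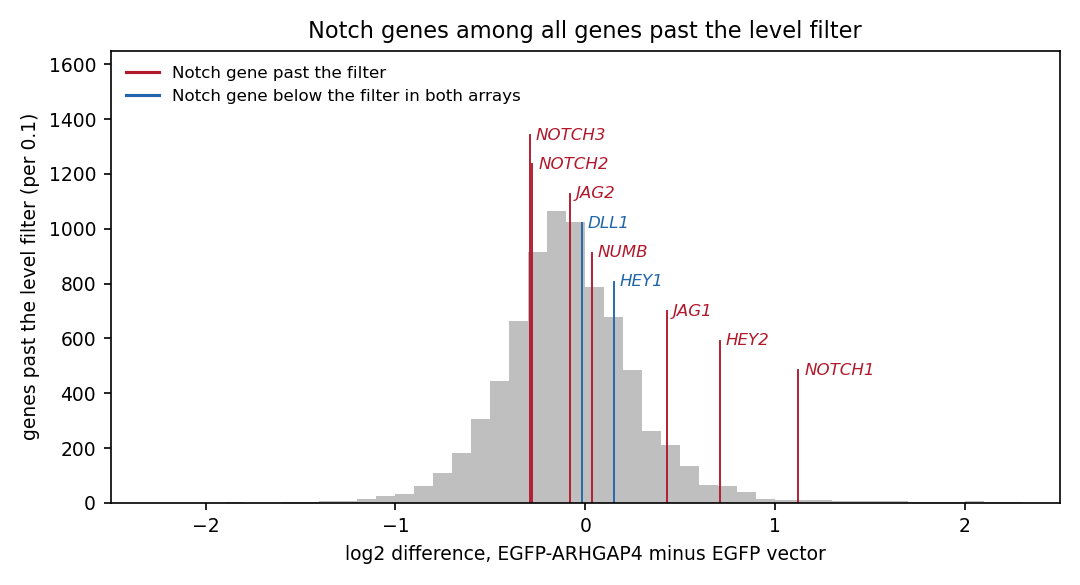
Number of genes past the level filter (y axis, bins of 0.1) by log2 difference, EGFP-ARHGAP4 minus EGFP vector (x axis), with the 9 measured Notch genes marked by lines whose heights carry no value. JAG1 at 0.43, HEY2 at 0.71 and NOTCH1 at 1.12 stand to the right of the bulk, and NOTCH2 and NOTCH3 near its lower quartile.

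The surroundings of each gene along its chromosome were compared with the gene itself, because these arrays also hold regions whose genes differ together. For each Notch gene the median difference was taken over the 12 genes past the filter on either side, or as many as the chromosome end left. The 24 neighbours of NOTCH1, on chromosome 9, had a median of 0.00, with 12 above 0. Those of JAG1, on chromosome 20, had a median of -0.27, with 2 above 0. Those of HEY2, on chromosome 6, had a median of -0.31, with 6 above 0. The neighbours of HEY1, NUMB and DLL1 had medians of -0.22, -0.10 and -0.07, below the genes' own differences of 0.15, 0.04 and -0.02. For NOTCH2 and NOTCH3 the neighbours were at -0.14 and -0.20, above the genes' own differences, and for JAG2 at 0.03. A gene with a high difference is bound to lie above such a median, so these values describe the surroundings and set no gene apart. None of the 10 genes lies on chromosome 10.

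**Figure D3:**
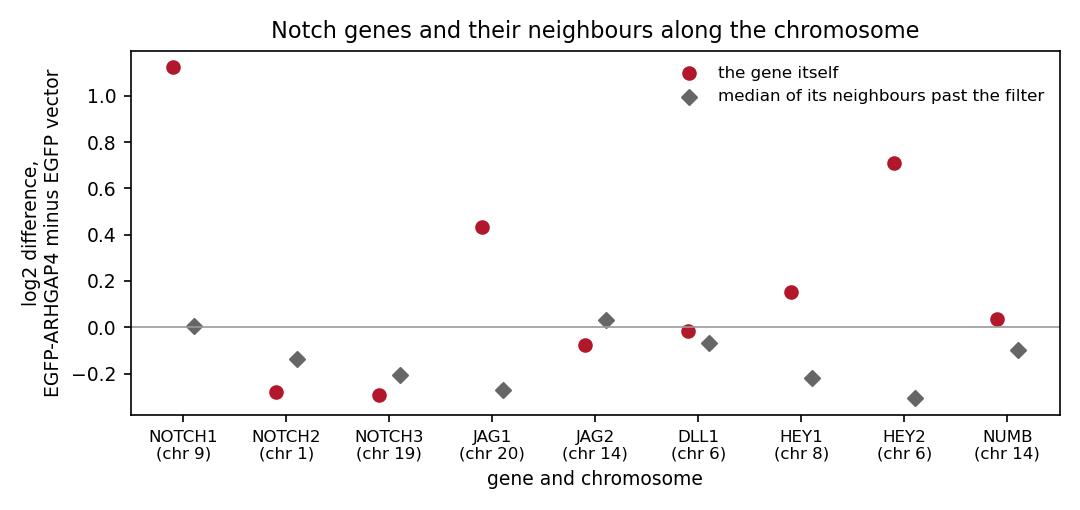
Log2 difference, EGFP-ARHGAP4 minus EGFP vector (y axis), of each measured Notch gene (circles) and the median of its neighbours past the level filter along the chromosome (diamonds), by gene and chromosome (x axis). The neighbours' medians lie between -0.31 (HEY2) and 0.03 (JAG2), and 6 of the 9 genes lie above theirs; there is 1 array per group and no error bar.

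Further genes of the pathway were read from 11 lists, which together hold the 10 genes above. Counts above and below 0 are as deposited, where the centre of all genes past the filter is itself below 0. In the list of receptor glycosylation, 3 of the 11 measured genes were above 0 and 8 below, with a median of -0.30. POGLUT2 and POGLUT3, which add glucose to EGF-like repeats, were lower by more than 0.5. POGLUT2 stood at 6.16 in the EGFP-ARHGAP4 array and 6.73 in the EGFP vector array, and POGLUT3 at 7.23 in the EGFP-ARHGAP4 array and 7.81 in the EGFP vector array. POFUT1, which adds the fucose that Notch receptors need, is given after its value was seen, with a difference of 0.13. The fringe enzymes LFNG, MFNG and RFNG, which extend that fucose and so tune which ligand is bound, had differences of -0.35, -0.13 and 0.32 and are also given after their values were seen.

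The 8 measured of 9 cleavage enzymes centred on 0.00, with 4 above 0 and 4 below as deposited. NCSTN, nicastrin, the gamma-secretase subunit that receives the substrate, was the one past 0.5, at 8.68 in the EGFP-ARHGAP4 array and 8.12 in the EGFP vector array, 1.47-fold higher. The sheddases ADAM10 and ADAM17, given after their values were seen, differed by -0.22 and -0.05.

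Among 17 measured genes of endocytosis, ubiquitination and inhibition, 7 were above 0 and 10 below, with a median of -0.06, which was above 0 after each of the 3 scalings. AAK1, a kinase of clathrin-coated pits, was 1.61-fold lower, at 5.36 in the EGFP-ARHGAP4 array and 6.04 in the EGFP vector array. None of this list was higher by 0.5. In the nuclear complex, 2 of 9 genes were above 0 and 7 below, with a median of -0.11, and none reached 0.5. RBPJ itself, given after its value was seen, had 4.56 in the EGFP-ARHGAP4 array and 4.67 in the EGFP vector array, and the coactivator gene MAML3 had the widest difference, 0.38. Of 14 corepressor genes 6 were measured, with HDAC1, a histone deacetylase, at 0.39 and a list median of -0.06, which was above 0 after each of the 3 scalings. The genes CTBP1 and CTBP2 of that list, given after their values were seen, held identical values in both arrays.

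The direct targets, HEY1, HEY2 and NOTCH3 among them, were measured for 11 of 12 genes. Of these, 5 were above 0 and 6 below, and the median was -0.07, which was above 0 after each of the 3 scalings. HEYL, the third HEY gene, stood at 3.50 in the EGFP-ARHGAP4 array and 2.74 in the EGFP vector array, a difference of 0.75. Both of its values lie below the filter, and it is named after its value was seen. The remaining targets HES4, HES5, HES7, NRARP, DTX1, MYC and CCND1, also added after their values were seen, had differences between -0.29 and 0.09. NRARP, a feedback inhibitor that many cells induce with Notch activity, had 3.48 in the EGFP-ARHGAP4 array and 3.68 in the EGFP vector array. Of the 3 measured HES and HEY relatives, HES6 alone passed the filter, at a difference of 0.20.

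Non-canonical ligands and ligand-like proteins had a median of 0.27 over 8 measured genes, of which 4 passed the filter. CCN3, a secreted matricellular protein that can bind NOTCH1, stood at 4.07 in the EGFP-ARHGAP4 array and 2.46 in the EGFP vector array, a difference of 1.61. Its EGFP vector value lies well below the filter, so its fold of 3.04 is approximate. CCN3 passed the filter, and so was named by the rule, through the EGFP-ARHGAP4 array alone, where it is high. DLK2, a relative of the Delta-like ligands named after its value was seen, had 6.98 in the EGFP-ARHGAP4 array and 6.49 in the EGFP vector array, a difference of 0.49. DNER and MFAP5 also passed the filter and are given after their values were seen. DNER had 7.79 in the EGFP-ARHGAP4 array and 8.03 in the EGFP vector array, a difference of -0.24. MFAP5 held the same value of 4.32 in both arrays. Of the 8 measured genes, 5 were above 0, 2 below and 1 identical.

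Genes linked to Notch in keratinocytes and mammary epithelium had a median of 0.20 over 9 measured of 12, with 6 above 0 and 3 below. GATA3, a transcription factor of luminal cells, was the one past 0.5, at 4.71 in the EGFP-ARHGAP4 array and 5.37 in the EGFP vector array. GATA3 lies on chromosome 10, and its 24 neighbours had a median of -0.71, close to its own difference of -0.66. The other 8, given after their values were seen, differed by 0.43 (IVL), 0.42 (SOX9), 0.41 (KRT19), 0.36 (KRT8), 0.20 (ELF5), 0.08 (KRT18), -0.03 (KRT10) and -0.06 (KRT1). Of these, IVL, KRT19, ELF5, KRT10 and KRT1 were below the filter in both arrays. CDKN1A and TP63 had no named feature.

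**Figure D4:**
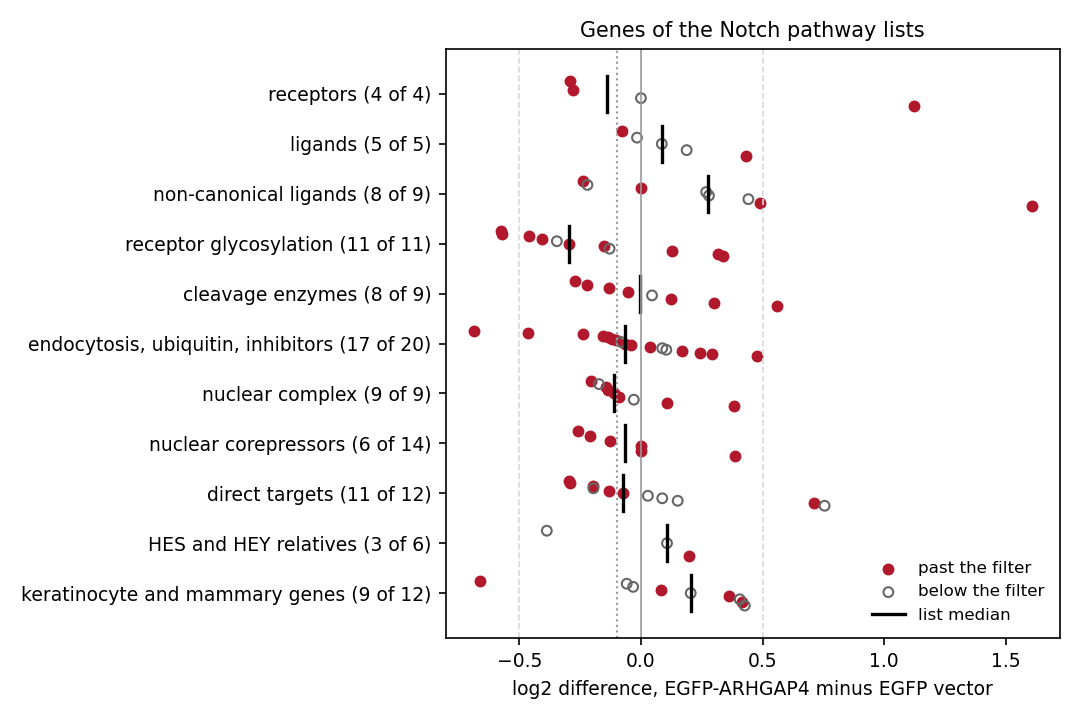
Log2 differences, EGFP-ARHGAP4 minus EGFP vector (x axis), of every measured gene of the 11 lists (y axis, with the number measured of the number listed), with filled points past the level filter and open points below it in both arrays. Black bars are list medians, the dotted line is the median of all genes past the filter at -0.10, and the dashed lines mark 0.5 either way; CCN3 at 1.61 and NOTCH1 at 1.12 lie farthest to the right.

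Over all Notch lists but that of keratinocyte and mammary genes, 80 of 97 listed genes were measured, 32 above 0 and 44 below, with 4 identical in both arrays. Of these 80, 5 were higher by at least 0.5 (NOTCH1, HEY2, HEYL, NCSTN and CCN3), or 6.25%, and 3 were lower by as much (POGLUT2, POGLUT3 and AAK1), or 3.75%, beside 4.25% and 6.47% of all genes. The counts were 8 higher and 1 lower after quantile normalization, and 9 and 1 after centring or loess, where POGLUT2 and POGLUT3 no longer reached 0.5. The median of the 80 was -0.06. With 2 arrays a gene has a single difference, so no genes are named for a pattern like that of a Notch gene.

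Endothelial cells also use Notch, and their markers were read beside these values. Of 10 listed, 7 were measured, and KDR alone differed by 0.5 or more, at 5.63 in the EGFP-ARHGAP4 array and 3.36 in the EGFP vector array. Their log2 values summed to 24.7 in the EGFP-ARHGAP4 array and 22.4 in the EGFP vector array, and KDR differed by 2.27. CLDN5 was at or above the filter in both arrays, at 4.32 in the EGFP-ARHGAP4 array and 4.31 in the EGFP vector array. EMCN, ERG, ESAM, TIE1 and VWF lay below it in both, and TEK, PECAM1 and CDH5 had no named feature. Fibroblast and adipocyte markers, 3 and 4 measured, lay below the filter in both arrays. Their log2 values summed to 7.69 in the EGFP-ARHGAP4 array and 7.61 in the EGFP vector array for the fibroblast list, and to 10.8 in the EGFP-ARHGAP4 array and 12.1 in the EGFP vector array for the adipocyte list, where PPARG differed by -0.57. Of 4 measured immune markers, LAPTM5 differed by 2.05, CD68 by 0.48, CD14 by -0.35 and TYROBP by -0.41, and the list summed to 23.5 in the EGFP-ARHGAP4 array and 21.8 in the EGFP vector array. Unlike the fibroblast and adipocyte markers, CD68, CD14 and LAPTM5 were at or above the filter in both arrays, and TYROBP in the EGFP vector array alone. The part of other cell types in the Notch values was not tested.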

How the data were processed

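RNA of 2 MCF-10A lines was measured with 1 Affymetrix array each, and samples were grouped by the genotype in their labels. Per the labels' protocols, total RNA was amplified to sense-strand cDNA and labelled with biotin. The deposited table holds normalized log2 expression values for 44629 features; no source at hand names the summarisation or normalization. Base 2 follows from the values, since the highest, 12.8, exceeds the natural log (11.1) and log10 (4.82) of a 16-bit reading. Array number limits the precision, and no detection calls were used.

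Names came from the platform annotation of 2020, which gave 1 symbol to 15835 features, several to none and none to 28794; all 15835 matched a RefSeq gene by Entrez identifier. Values of features sharing a symbol were averaged. No test was made, because there is 1 array per group. Genes were counted at log2 differences of 0.5 and 1. The members and lists were chosen with earlier results of these data known. Genes were named by a rule: ARHGAP4, each measured member and, from each list, genes past the filter at 0.5 or more or else the 1 farthest from 0; cell type markers aside, others are said to be given after their values were seen. Promoters came from the RefSeq table (GRCh38.p14). Alternatives were quantile normalization, centring, loess (span 0.3), the highest feature, other filters and thresholds, and leaving out chromosome 10. The tools were matplotlib 3.10.9, statsmodels 0.14.6, numpy 2.4.6 and pandas 2.3.3 in Python 3.11.15, and the calculations were tested on simulated data.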

Additional observations from a re-analysis of the deposited data

How the results depend on the processing

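The difference of each of the 9 measured Notch genes moved by less than 0.21 under loess, centring, quantile normalization and use of the highest feature. That value is the SD between features of a gene past the filter. Use of the highest feature could not move these genes, since each rests on 1 feature. Centring takes the same median of -0.10 from every gene and so moves each by less than 0.21. Only loess and quantile normalization could move 1 gene more than another. NOTCH1 ranged from 1.12 to 1.25 and HEY2 from 0.71 to 0.81 over these 4 settings, and JAG2 and DLL1 changed sign. Of 12 list medians, 4 changed sign: those of the cleavage enzymes, the endocytosis list, the corepressors and the direct targets. The 2 Notch genes higher by 0.5 became 3 after quantile normalization, centring or loess, with JAG1 added. They became 1 under a filter at the 0.75 quantile or, chosen after seeing the data, on the mean of both arrays, since HEY2 then fell out. The median of the receptors became 0.42 under that stricter filter, which left NOTCH1 and NOTCH2, and that of the non-canonical ligands 0.00 with the filter on the mean. Over all Notch lists, the 5 genes higher and 3 lower by 0.5 became 8 and 1 after quantile normalization and 9 and 1 after centring or loess. The count higher was 2 under the filter at the 0.75 quantile or on the mean, where the 32 above 0 became 9 or 18 and, at the 0.75 quantile, the 44 below became 26. Of all genes past the filter, the 396 higher by 0.5 became 608 after centring, 629 with no filter and 185 at the 0.75 quantile; the 754 lower became 447 after centring, 497 after loess, 408 at the 0.75 quantile and 495 at 1.5-fold. The 77 higher by 1 became 39 at the 0.75 quantile, and the 61 lower became 37 after centring, 35 at the 0.75 quantile and 38 without chromosome 10. The share of the 2-fold calls that were higher was 55.8% as deposited, 67.2% after quantile normalization, 71.3% after centring and 68.9% after loess. No paired analysis was possible because there is 1 array per group. HEY2, HEYL and CCN3 rest on values near or below the filter, where differences narrow towards background.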
